A study of Homo sapiens with 6 samples.

Results

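Elafin, its relative SLPI, 6 serpins and the serine protease granzyme B were followed in the human colorectal adenocarcinoma line SW480. The 9 genes were found by symbol among the 60664 genes of the deposited table: PI3 (elafin), SLPI, SERPINA1, SERPINA3, SERPINB1, SERPINB5, SERPINB6, SERPINB9 and GZMB. They had been picked with the outcome of this experiment in view, so their differences between treatments are given as a description and not as a test. RNA was sequenced from 3 libraries of cells given Amuc_0904 and 3 libraries of cells given buffer, all from SW480 cells of genotype WT. The name Amuc_0904 is written like the gene identifiers of Akkermansia muciniphila, a bacterium of the gut mucus, and dose, exposure time and preparation are not given in the sources used here. Nothing in the labels says whether replicates came from separate cultures, so p-values measure only the spread between these libraries, which may be technical.

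Serine proteases of leukocytes and epithelia are held in check by small secreted inhibitors with a WAP domain, to which elafin and SLPI belong, and by serpins. A serpin offers an exposed loop to the protease, is cut there, and traps the enzyme as it changes shape. Clade A serpins are mostly secreted plasma proteins, while clade B serpins act mainly inside cells. Granzyme B is the protease that cytotoxic lymphocytes deliver into target cells, where it cleaves caspases after aspartate, and SERPINB9 is its known intracellular inhibitor.

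Expression is given in TPM, a share of each library's transcripts scaled by transcript length to a fixed total, which allows levels of different genes to be compared. Read numbers are not in the table, so depth per library is unknown and no counting interval can be given. The table summed to between 996107 and 997036 TPM per library. Over all genes, 14421 with at least 1 TPM in at least 3 libraries were tested with limma on log2(TPM + 1), and 53 were higher and 144 lower in cells given Amuc_0904 at an adjusted p under 0.05. That split was 43 higher and 42 lower with each library centred on its median, 46 and 56 after quantile normalization, and 79 and 41 after each library's trend with GC content was removed. A principal component analysis put 33.8% of the variance on its first axis, with Amuc_0904 replicate 3 and buffer replicate 2 at its ends. That axis split the treatments, with Amuc_0904 libraries at -13.1, -8.40 and -23.8 and buffer libraries at 9.52, 24.2 and 11.6. The libraries at its ends were thus those furthest from the other treatment. The epithelial markers EPCAM, KRT8, KRT18, KRT19 and CDX2 were all at 18.2 TPM or more, whereas KRT20 and VIL1 reached no more than 0.25 and 1.09 TPM. The 7 epithelial markers summed to between 7088 and 7377 TPM with Amuc_0904 and between 7900 and 8142 TPM with buffer, and their part in the differences below was not tested.

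All 9 genes passed the filter on low TPM. PI3, GZMB, SERPINA3 and SERPINA1 were past the threshold and higher in cells given Amuc_0904, 4 of 9 members beside 0.368% of all tested genes. No member was past it and lower, beside 0.999% of tested genes (1.37% in either direction), and by unadjusted p under 0.05 the numbers were also 4 higher and 0 lower in limma. That looser limit was passed by 4.49% of tested genes as higher, by 16.3% as lower and by 20.8% in either direction, and counts by unadjusted p given for other genes stand beside these shares. In 5 of the 9 all Amuc_0904 libraries lay above all buffer libraries (7.00% of tested genes), in 1 all lay below (20.1% of tested genes), and in 3 the groups overlapped, where 27.1% of tested genes had groups apart in either direction. Because the genes were picked on this contrast, these shares are set side by side only. In bulk RNA a change in the share of cells that express a gene cannot be told apart from a change in RNA per cell.

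**Figure D1:**
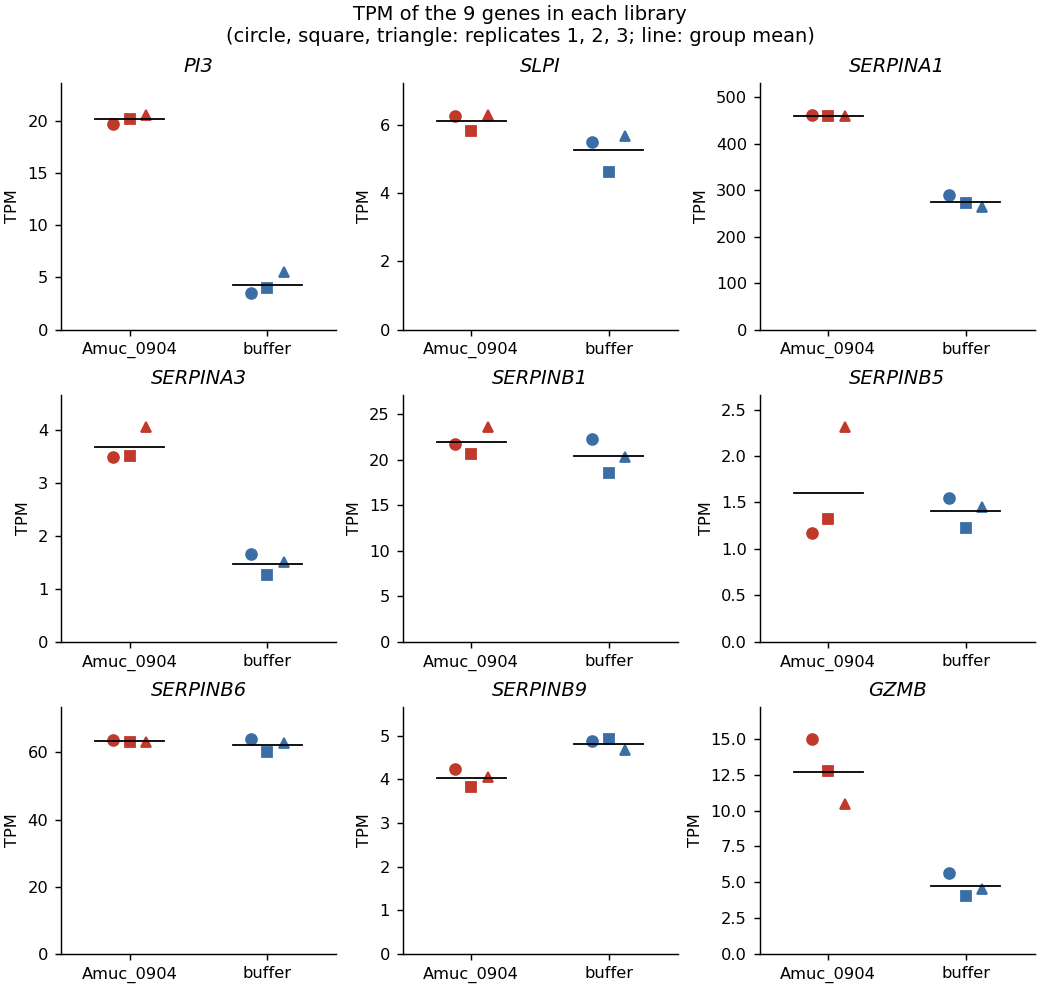
TPM of each gene (vertical axes, each starting at 0) in the 3 Amuc_0904 libraries (red) and the 3 buffer libraries (blue), with 1 marker per library and a line at the group mean. PI3, GZMB, SERPINA1 and SERPINA3 have their groups well apart, while SERPINB1, SERPINB5 and SERPINB6 have groups that overlap.

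Among the WAP inhibitors, elafin transcripts were several times more abundant with Amuc_0904 while SLPI differed little. PI3 encodes elafin, a secreted inhibitor of neutrophil elastase and proteinase 3 that transglutaminases can cross-link to the matrix. PI3 was at 19.75, 20.2 and 20.56 TPM with Amuc_0904, against 3.49, 4 and 5.48 TPM with buffer. The lowest Amuc_0904 library was thus above every buffer library, and the treated libraries lay closer together than the buffer libraries. The means were 20.2 ± 0.406 TPM with Amuc_0904 and 4.32 ± 1.03 TPM with buffer (SD, n = 3 each), a ratio of 4.67 and a log2 fold change of 2.01 (SE 0.14). This was the change of rank 3 from the top among the tested genes. Among genes with a group mean of at least 1 TPM, PI3 stood at percentile 63.7 with Amuc_0904 and at percentile 25.8 with buffer. It stayed past the threshold under all 17 alternatives, with a log2 fold change between 1.89 and 2.22.

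SLPI encodes a secreted inhibitor of elastase and cathepsin G that is built from WAP domains. SLPI was at 6.26, 5.82 and 6.28 TPM with Amuc_0904, against 5.49, 4.61 and 5.66 TPM with buffer. The groups did not overlap, but the gap between the closest libraries was small and the gene was not past the threshold (log2 fold change 0.19, SE 0.11). PI3 and SLPI lie close together on chromosome 20, 75.7 kb apart in GRCh38 (GENCODE 29), with SEMG1 and SEMG2 between them. PI3 (ENSG00000124102) spans 45174876 to 45176544 on the plus strand and SLPI (ENSG00000124107) spans 45252239 to 45254564 on the minus strand, and neither overlaps another annotated gene. The ratio of PI3 to SLPI within a library was 3.15, 3.47 and 3.27 with Amuc_0904, against 0.636, 0.868 and 0.968 with buffer. PI3 was therefore the more abundant of the pair in every Amuc_0904 library, and SLPI in every buffer library.

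Of the other 14 genes on the WAP list, WFDC2 and WFDC3 passed the filter on low TPM, and neither was past the threshold. Both were higher by unadjusted p under 0.05 in limma, and their median log2 fold change was 0.46. With PI3 and SLPI the median of the 4 tested genes was also 0.46, beside -0.06 over all tested genes. WFDC2, which encodes the secreted protein HE4, was at 79.6, 85.8 and 74.1 TPM with Amuc_0904, against 57.5, 61.7 and 68.95 TPM with buffer (log2 fold change 0.34, limma adjusted p = 0.083). WFDC3 averaged 13.8 ± 2.04 TPM with Amuc_0904 and 9.05 ± 2.34 TPM with buffer (SD, n = 3 each; limma adjusted p = 0.14). WFDC10B was below the filter, at 0.35 to 0.90 TPM with Amuc_0904 and 0 to 0.34 TPM with buffer. WFDC3 overlaps 2 genes on the opposite strand, and the strand protocol is not known. The neutrophil proteases that these inhibitors block were close to absent: ELANE, which encodes neutrophil elastase, was listed at 0 in all 6 libraries, and PRTN3 and CTSG did not exceed 0.41 TPM in any.

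The secreted clade A serpins were represented by an abundant gene and a rare one, and both were higher with Amuc_0904. SERPINA1 encodes alpha-1-antitrypsin, the main plasma inhibitor of neutrophil elastase. SERPINA1 was at 461.55, 460.56 and 460.39 TPM with Amuc_0904, against 290.36, 272.29 and 264.66 TPM with buffer. The treated libraries were nearly identical and all stood above the buffer libraries. The ratio of means was 1.67 and the log2 fold change 0.74 (SE 0.06), and the gene was past the threshold under all 17 alternatives (log2 fold change 0.71 to 0.85). SERPINA1 was at percentile 98.1 of expressed genes with Amuc_0904 and at percentile 96.7 with buffer.

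SERPINA3 encodes alpha-1-antichymotrypsin, an acute phase inhibitor of cathepsin G and mast cell chymase. SERPINA3 was at 3.49, 3.52 and 4.06 TPM with Amuc_0904, against 1.66, 1.26 and 1.5 TPM with buffer. The groups were apart, at a low level, and the number of reads behind these values is unknown. The ratio of means was 2.50, while the log2 fold change was 0.92 (SE 0.13) because the added 1 TPM shrinks changes of low genes, and with 0.1 TPM added it was 1.27. SERPINA3 lost the call without each of the 6 libraries in turn, although its log2 fold change then stayed between 0.86 and 0.98. The call also ended with no filter on low TPM and without both Amuc_0904 replicate 3 and buffer replicate 2.

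Both genes lie in the serpin cluster of chromosome 14, 221.7 kb apart (GRCh38, GENCODE 29). SERPINA1 (ENSG00000197249) spans 94376747 to 94390693 on the minus strand and SERPINA3 (ENSG00000196136) spans 94612377 to 94624055 on the plus strand. SERPINA3 overlaps 1 other gene on its own strand, AL049839.2, which did not exceed 0.02 TPM in any library. Of the other clade A genes, SERPINA2 was at 6.41, 5.37 and 5.93 TPM with Amuc_0904, against 4.51, 2.74 and 2.34 TPM with buffer, and was not past the threshold (limma adjusted p = 0.084). SERPINA2 is a close copy of SERPINA1, so reads could be shared between them and its level is uncertain. SERPINA5, the protein C inhibitor gene, averaged 1.01 ± 0.315 TPM with Amuc_0904 and 1.22 ± 0.284 TPM with buffer (SD, n = 3 each). SERPINA6, the corticosteroid-binding globulin gene, was below the filter, at 0.59 to 2.14 TPM with Amuc_0904 and 0.39 to 0.74 TPM with buffer. Hepatocytes are the main source of clade A serpins in the body, and hepatocyte markers were near 0: 8 of them summed to between 0 and 0.41 TPM with Amuc_0904 and between 0 and 0.46 TPM with buffer, with APOA2, TTR, FGA and APOH listed at 0 throughout.

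Of the intracellular clade B serpins, 0 of the 5 tested were past the threshold (1 higher by unadjusted p under 0.05 in limma, SERPINB8), and their median log2 fold change was 0.09. The 4 tested clade A genes had a median of 0.74, and the 2 that are not members, SERPINA2 and SERPINA5, had a median of 0.30, beside 0.32 for SERPINB8. Whether the clades differ was not tested. SERPINB6, an inhibitor of cathepsin G and trypsin-like proteases found in many tissues, was at 63.73, 63.11 and 63.2 TPM with Amuc_0904, against 63.89, 60.1 and 62.73 TPM with buffer. Its groups overlapped, and the log2 fold change was 0.03 (SE 0.06). SERPINB1, an inhibitor of neutrophil elastase, proteinase 3 and cathepsin G, was at 21.69, 20.62 and 23.55 TPM with Amuc_0904, against 22.23, 18.56 and 20.26 TPM with buffer, and these groups overlapped as well (log2 fold change 0.11, SE 0.09).

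SERPINB9, the granzyme B inhibitor, was the member whose Amuc_0904 libraries all lay below the buffer libraries. SERPINB9 was at 4.23, 3.82 and 4.05 TPM with Amuc_0904, against 4.88, 4.92 and 4.67 TPM with buffer. The ratio of means was 0.836 and the log2 fold change -0.21 (SE 0.11), and the gene was not past the threshold in the main fit or in any of the 16 alternatives that kept it. SERPINB5 encodes maspin, a clade B protein that does not inhibit proteases and is often lost in breast tumours. SERPINB5 was at 1.17, 1.32 and 2.31 TPM with Amuc_0904, against 1.55, 1.22 and 1.45 TPM with buffer. A single library, Amuc_0904 replicate 3, set its mean above that of buffer, and without it the log2 fold change was -0.10 in place of 0.09.

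SERPINB1, SERPINB9 and SERPINB6 sit side by side on chromosome 6 (GRCh38, GENCODE 29), all on the minus strand, with gaps of 45.3 kb and 44.9 kb between them. SERPINB1 (ENSG00000021355) spans 2832332 to 2842006, SERPINB9 (ENSG00000170542) spans 2887266 to 2903280 and SERPINB6 (ENSG00000124570) spans 2948159 to 2972165, none overlapping another annotated gene. SERPINB5 (ENSG00000206075) lies apart from them in the serpin cluster of chromosome 18, from 63476761 to 63505085 on the plus strand, and the 2 genes that overlap it were listed at 0. In that cluster SERPINB8, an inhibitor of furin-type proteases, was at 4.60, 5.81 and 5.83 TPM with Amuc_0904, against 4, 3.84 and 4.55 TPM with buffer (limma adjusted p = 0.20). SERPINB2, which encodes the plasminogen activator inhibitor PAI-2, was below the filter, at 1.18, 1.12 and 0.73 TPM with Amuc_0904, against 0.08, 0.27 and 0.28 TPM with buffer. SERPINB2 overlaps SERPINB10 on its own strand, so reads could be shared. SERPINB10 was at 0.51 TPM in buffer replicate 1 and at 0 in the other libraries. The 8 clade B genes below the filter also included 5 listed at 0 in every library, among them the squamous antigens SERPINB3 and SERPINB4.

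**Figure D2:**
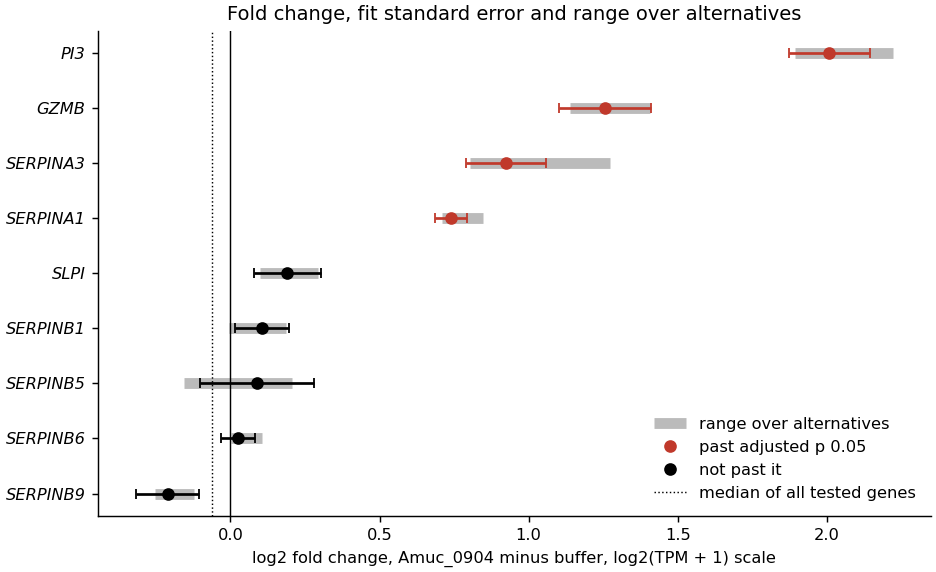
Log2 fold change of each gene (Amuc_0904 minus buffer, horizontal axis, log2(TPM + 1) scale) with the standard error of the limma fit, over a grey bar that spans the values under the alternatives. PI3, GZMB, SERPINA3 and SERPINA1 lie between 0.74 and 2.01, SLPI and the clade B serpins between -0.21 and 0.19, and the dotted line marks the median of all tested genes, -0.06.

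GZMB, the protease of the group, was also higher with Amuc_0904. GZMB was at 14.99, 12.77 and 10.45 TPM with Amuc_0904, against 5.68, 4.04 and 4.5 TPM with buffer. The groups were apart, although the Amuc_0904 libraries spread more widely than those of any other member called. The ratio of means was 2.69 and the log2 fold change 1.26 (SE 0.15), with values between 1.14 and 1.41 under the alternatives. The call held without each of 5 single libraries and ended without buffer replicate 2 (log2 fold change 1.17), without both that library and Amuc_0904 replicate 3 (log2 fold change 1.29), and with no filter on low TPM. GZMB (ENSG00000100453) spans 24630954 to 24634267 on the minus strand of chromosome 14 (GRCh38, GENCODE 29), and the 1 antisense gene that overlaps it was listed at 0 in every library.

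Of the other cytotoxic granule genes 4 were tested, with 0 past the threshold in limma (1 higher and 2 lower by unadjusted p under 0.05) and a median log2 fold change of -0.12. The other granzymes GZMA, GZMH, GZMK and GZMM did not exceed 0.24 TPM in any library, so GZMB was the one granzyme expressed above 1 TPM. GZMH is a close relative of GZMB, and reads shared between them would be hard to assign. PRF1, which encodes the pore-forming protein perforin, was far more abundant than GZMB and ran the other way, at 165.69, 169.35 and 161.62 TPM with Amuc_0904, against 195.71, 206.83 and 189.36 TPM with buffer. The groups of PRF1 did not overlap, and it was not past the threshold (log2 fold change -0.25, SE 0.06, limma adjusted p = 0.071). CST7, which encodes cystatin F, an inhibitor of the cathepsins that activate granzymes, averaged 113 ± 4.26 TPM with Amuc_0904 and 122 ± 0.802 TPM with buffer (SD, n = 3 each; limma adjusted p = 0.35). LAMP1, a membrane protein of lysosomes and lytic granules, averaged 114 ± 3.39 TPM with Amuc_0904 and 126 ± 6.90 TPM with buffer (limma adjusted p = 0.24), and CTSC, the protease that activates granzymes, averaged 49.7 ± 0.404 TPM with Amuc_0904 and 44.7 ± 0.620 TPM with buffer (limma adjusted p = 0.19). PRF1, CST7, LAMP1 and CTSC overlap no annotated gene.

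Lymphocyte markers other than PRF1 were low. PTPRC, the pan-leukocyte marker CD45, was listed at 0 in all 6 libraries, as was GZMK, and CD3D, CD3E and CD3G did not exceed 0.19 TPM. CD8B and NCAM1 passed the filter and were not past the threshold. CD8B was at 0.91 to 1.83 TPM with Amuc_0904 and 0.98 to 2.55 TPM with buffer. NCAM1 was at 1.88 to 2.66 TPM with Amuc_0904 and 2.56 to 3.52 TPM with buffer. The 13 markers of cytotoxic T and NK cells summed to between 166 and 174 TPM with Amuc_0904 and between 197 and 212 TPM with buffer, nearly all of it PRF1. The 12 without PRF1 summed to between 4.32 and 4.62 TPM with Amuc_0904 and between 5.07 and 7.55 TPM with buffer, and their part in the GZMB difference was not tested. The 11 neutrophil and monocyte markers summed to between 2.48 and 3.87 TPM with Amuc_0904 and between 2.21 and 2.68 TPM with buffer, with ELANE, MPO, CSF3R and FCGR3B listed at 0. Of these CD14 passed the filter, at 1.06 to 2.24 TPM with Amuc_0904 and 1.14 to 1.66 TPM with buffer.

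Within each library the balance of granzyme B to its inhibitor restates the values above, where GZMB was past the threshold and SERPINB9 was not. The ratio of GZMB to SERPINB9 in TPM was 3.54, 3.34 and 2.58 with Amuc_0904, against 1.16, 0.821 and 0.964 with buffer. These transcripts were thus at similar levels in buffer libraries and GZMB was the more abundant in every Amuc_0904 library. The ratio averaged 3.16 ± 0.508 with Amuc_0904 and 0.983 ± 0.172 with buffer (SD, n = 3 each). It is a ratio of transcripts, and protein was not measured.

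**Figure D3:**
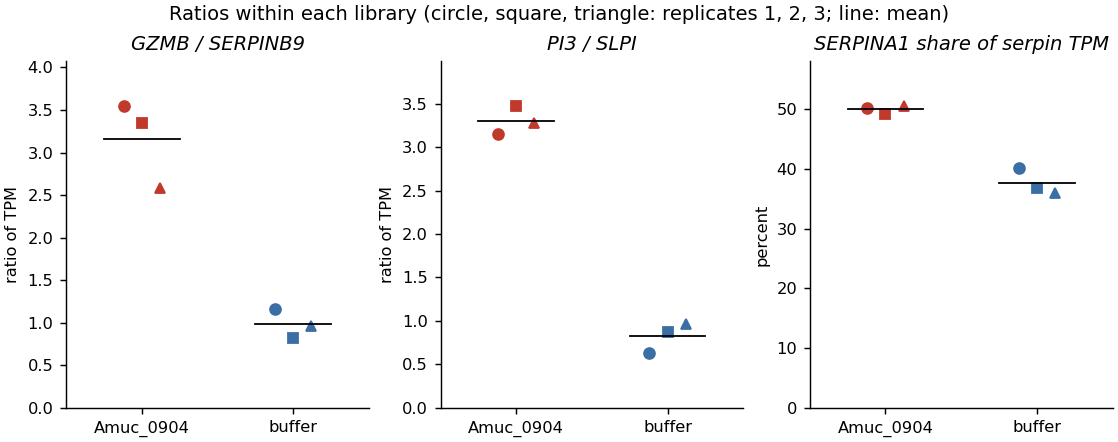
Ratio of GZMB to SERPINB9, ratio of PI3 to SLPI, and SERPINA1 as a percentage of all serpin TPM (vertical axes, starting at 0), with 1 marker per library for Amuc_0904 (red) and buffer (blue). The GZMB to SERPINB9 ratio lies between 2.58 and 3.54 with Amuc_0904 and between 0.821 and 1.16 with buffer.

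Sequence before the annotated start was available from RefSeq (GRCh38.p14) for 7 of the 9 genes, all except PI3 and SLPI. Shown are the 250 bases before the start for the protease and its inhibitor, and for the clade A serpins that were higher with Amuc_0904, written 5′ to 3′ on the gene's strand. Capitals mark a match to AP-1 (TGANTCA) or to a TATA box (TATAAA).
GZMB (chr14:24634191-24634440, strand -): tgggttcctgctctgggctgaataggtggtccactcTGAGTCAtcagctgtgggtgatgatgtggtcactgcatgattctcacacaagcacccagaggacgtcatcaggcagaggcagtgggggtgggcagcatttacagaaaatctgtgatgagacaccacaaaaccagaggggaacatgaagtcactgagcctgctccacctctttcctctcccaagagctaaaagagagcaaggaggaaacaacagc
SERPINB9 (chr6:2903310-2903559, strand -): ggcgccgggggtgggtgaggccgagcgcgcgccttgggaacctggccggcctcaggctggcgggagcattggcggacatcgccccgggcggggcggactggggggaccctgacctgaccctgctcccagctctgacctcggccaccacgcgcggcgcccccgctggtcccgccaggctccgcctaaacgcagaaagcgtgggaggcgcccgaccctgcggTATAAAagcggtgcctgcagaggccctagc
SERPINA1 upstream start (chr14:94390636-94390885, strand -): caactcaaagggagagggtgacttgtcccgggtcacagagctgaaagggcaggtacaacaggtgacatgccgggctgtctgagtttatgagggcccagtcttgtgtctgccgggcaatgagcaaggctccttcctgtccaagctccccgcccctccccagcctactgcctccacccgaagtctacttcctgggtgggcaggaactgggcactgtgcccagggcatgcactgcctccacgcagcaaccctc
SERPINA1 downstream start (chr14:94388603-94388852, strand -): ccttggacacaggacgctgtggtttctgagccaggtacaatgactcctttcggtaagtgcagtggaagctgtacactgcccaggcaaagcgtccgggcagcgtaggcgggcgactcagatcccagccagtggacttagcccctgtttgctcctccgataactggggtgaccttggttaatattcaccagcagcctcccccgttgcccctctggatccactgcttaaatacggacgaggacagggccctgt
SERPINA3 (chr14:94612141-94612390, strand +): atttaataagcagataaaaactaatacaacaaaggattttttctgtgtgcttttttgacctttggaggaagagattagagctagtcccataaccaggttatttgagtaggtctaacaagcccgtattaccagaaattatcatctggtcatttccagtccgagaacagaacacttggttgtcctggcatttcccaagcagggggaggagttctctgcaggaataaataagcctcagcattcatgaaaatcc
Both strands were searched for these letters, for a STAT motif (TTCNNNGAA), for a C/EBP half-site form (TTGCNNAA) and for the NF-kB consensus, with no overlap between the matches found. GZMB held 1 AP-1 match, which begins 214 bases before the start, and SERPINB9 held a TATA box that begins 30 bases before it. SERPINA1, at both of its starts, and SERPINA3 held none of the 5 motifs in this window. Among 35116 windows of this length, 6.57% held the AP-1 letters, 10.7% a TATA box, 6.57% the STAT letters, 9.05% the C/EBP letters and 9.96% the NF-kB consensus. Of the members not printed, SERPINB5 had 1 AP-1 match, SERPINB1 had 1 STAT match and the 4 starts of SERPINB6 had none. RefSeq starts can differ from the ends of the GENCODE 29 spans given above. The SERPINB5 match, the 4 SERPINB6 windows and the window of the SERPINA1 downstream start lie inside those spans. A match is only a description of the letters.

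PI3 and GZMB stood higher in the order of levels with Amuc_0904 than with buffer. With Amuc_0904 the order of means was SERPINA1, SERPINB6, SERPINB1, PI3, GZMB, SLPI, SERPINB9, SERPINA3 and SERPINB5. SERPINB9 and SERPINA3 overlapped in that order, and no other neighbours did, although PI3 reached 20.56 TPM and SERPINB1 began at 20.62 TPM. With buffer the order was SERPINA1, SERPINB6, SERPINB1, SLPI, SERPINB9, GZMB, PI3, SERPINA3 and SERPINB5. There SLPI, SERPINB9, GZMB and PI3 overlapped between 3.49 and 5.68 TPM, as did SERPINA3 and SERPINB5 between 1.22 and 1.66 TPM.

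SERPINA1 was the most abundant serpin transcript in every library. The table held 35 serpin genes, with 16 tested and 9 at 0 throughout. Summed over all 35, serpin transcripts came to 919.53, 935.63 and 912.47 TPM with Amuc_0904, against 723.45, 740.25 and 737.4 TPM with buffer, so the sum was higher in every Amuc_0904 library. Without SERPINA1 it was 457.98, 475.07 and 452.08 TPM with Amuc_0904, against 433.09, 467.96 and 472.74 TPM with buffer, and these groups overlapped. SERPINA1 made up 49.96 ± 0.648% of the sum over all 35 with Amuc_0904 and 37.6 ± 2.24% with buffer (SD, n = 3 each). The share of SERPINH1 was 23.8 ± 2.15% with Amuc_0904 and 32.2 ± 2.23% with buffer. SERPINH1, which encodes the collagen chaperone HSP47 of the endoplasmic reticulum, was next, at 220.1 ± 22.1 TPM with Amuc_0904 and 237 ± 19.0 TPM with buffer (limma adjusted p = 0.55). SERPINF1, which encodes the angiogenesis inhibitor PEDF, was at 22.09, 26.51 and 30.19 TPM with Amuc_0904, against 27.91, 25.72 and 21.37 TPM with buffer. Among the 10 tested serpins outside the members, 0 passed the threshold in limma and 2 had an unadjusted p under 0.05, both higher with Amuc_0904 (SERPINA2 and SERPINB8). Their median log2 fold change was 0.11, beside -0.06 over all tested genes.

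**Figure D4:**
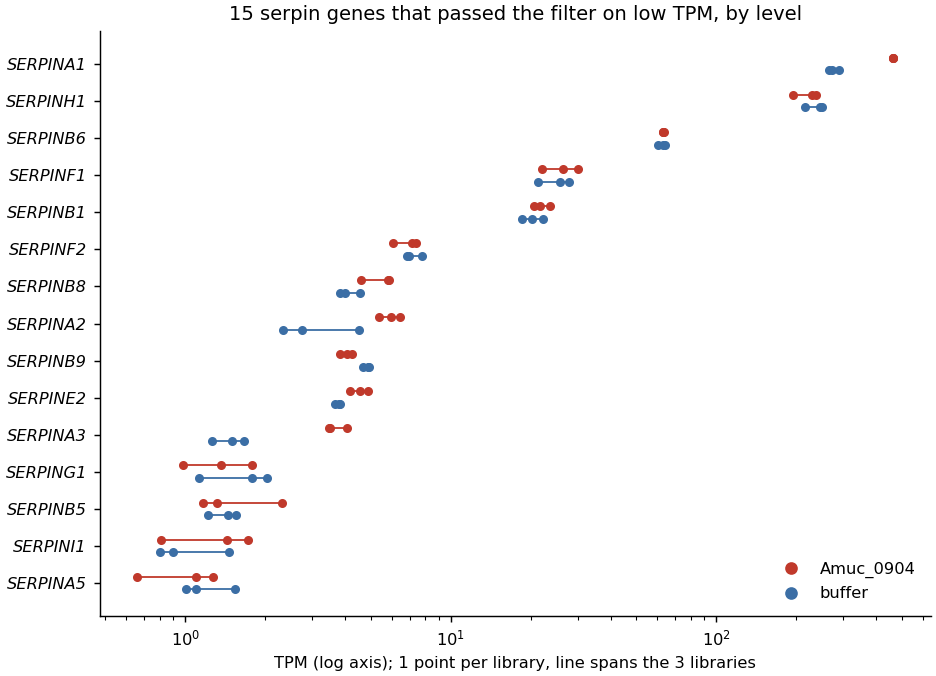
TPM (horizontal log axis) of 15 of the 16 serpin genes that passed the filter, ordered by level, with 1 point per library for Amuc_0904 (red, upper row) and buffer (blue, lower row). SERPINA1 and SERPINA3 have all red points above the blue ones, as do SERPINA2, SERPINB8 and SERPINE2, which were not past the threshold. SERPINB9 has all red points below the blue ones, while SERPINH1, SERPINF1 and SERPINB6 have groups that overlap.

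Of the Kunitz and Kazal inhibitors 3 were tested and 0 were past the threshold in limma, with 2 lower at an unadjusted p under 0.05 and a median log2 fold change of -0.19. SPINT2, which encodes an inhibitor of matriptase and hepsin, was at 253.61, 265.3 and 242.53 TPM with Amuc_0904, against 274.25, 291.76 and 301.51 TPM with buffer (limma adjusted p = 0.14). Its relative SPINT1 averaged 31.5 ± 1.56 TPM with Amuc_0904 and 38.1 ± 4.77 TPM with buffer (limma adjusted p = 0.18), and RECK, a membrane inhibitor of metalloproteases, averaged 3.11 ± 0.212 TPM with Amuc_0904 and 3.45 ± 0.316 TPM with buffer (SD, n = 3 each). SERPINB8, SPINT1, SPINT2, RECK, PRSS3, TGM2, PLAUR and IGF2R each overlap another annotated gene, so their levels could include its reads.

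Of 14 tested epithelial and coagulation proteases, 0 were higher and 1 was lower over all genes (1 higher and 5 lower by unadjusted p under 0.05), with a median log2 fold change of -0.18. The one that fell was KLK6, which encodes a secreted kallikrein, at 53.52, 56.31 and 56.16 TPM with Amuc_0904, against 68.75, 78.95 and 75.32 TPM with buffer (log2 fold change -0.42, SE 0.07, limma adjusted p = 0.036). KLK6 overlaps 3 other genes, and its call held under 4 of 16 alternatives, failing for example after GC removal (limma adjusted p = 0.081) and without 5 of the 6 libraries in turn (all but buffer replicate 1). FURIN, a proprotein convertase gene, averaged 42.2 ± 1.61 TPM with Amuc_0904 and 56.6 ± 5.59 TPM with buffer (limma adjusted p = 0.055). ST14, which encodes matriptase, averaged 51.8 ± 1.83 TPM with Amuc_0904 and 62.6 ± 5.83 TPM with buffer (limma adjusted p = 0.12), and the trypsinogen gene PRSS3 averaged 43.8 ± 3.85 TPM with Amuc_0904 and 46.5 ± 4.35 TPM with buffer. PRSS3 has close copies among the trypsinogen genes, and its level is uncertain.

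Among 7 tested receptors and partners of proteases, 0 were past the threshold in limma, with 1 higher and 1 lower at an unadjusted p under 0.05. TGM2, which encodes a transglutaminase, the kind of enzyme that can cross-link elafin, was at 839 ± 35.4 TPM with Amuc_0904 and 1004 ± 89.5 TPM with buffer (limma adjusted p = 0.11). PLAUR, the urokinase receptor gene, averaged 50.2 ± 1.23 TPM with Amuc_0904 and 42.5 ± 1.63 TPM with buffer (limma adjusted p = 0.099). IGF2R, the mannose-6-phosphate receptor gene, averaged 36.1 ± 4.03 TPM with Amuc_0904 and 40.9 ± 3.97 TPM with buffer (SD, n = 3 each).

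Elafin and maspin are typical of squamous epithelium, and KRT5 and KRT6A, of its 8 markers listed, were abundant in these cells. KRT5 was at 3268.46, 3428.9 and 3202.18 TPM with Amuc_0904, against 3933.91, 4141.18 and 3989.01 TPM with buffer, and KRT6A was at 145.46, 153.37 and 153.52 TPM with Amuc_0904, against 198.86, 193.55 and 181.21 TPM with buffer. Both were lower in each Amuc_0904 library, KRT6A past the threshold (limma adjusted p = 0.038) and KRT5 not (limma adjusted p = 0.053). Whether the KRT6A call held under the alternatives is not given here. KRT6A has near-identical relatives that could share its reads. The other 6 squamous markers summed to between 0.82 and 1.31 TPM with Amuc_0904 and between 0.76 and 1.04 TPM with buffer, with IVL, TP63 and SPRR1B listed at 0. All 8 together summed to between 3357 and 3583 TPM with Amuc_0904 and between 4134 and 4335 TPM with buffer, and their part in the PI3 difference was not tested.

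Within 500 kb of the 9 genes there were 60 other tested protein-coding genes, of which 0 were past the threshold in either direction (8 higher and 9 lower by unadjusted p under 0.05 in limma). Around PI3 and SLPI the log2 fold changes of 11 tested neighbours ran from -0.37 to 0.57. SDC4, which encodes the cell surface proteoglycan syndecan 4 and was chosen here after its value was seen, was at 122 TPM with Amuc_0904 and 98.1 TPM with buffer (limma adjusted p = 0.056). Around SERPINA1 and SERPINA3 the 9 neighbours ran from -0.15 to 0.48. SERPINA2, close to SERPINA1 on chromosome 14, is annotated as a polymorphic pseudogene and so is not among the 9, and its log2 fold change of 0.75 was slightly above the 0.74 of SERPINA1. Around GZMB the 28 neighbours ran from -0.73 to 0.38. RNF31, also named after its value was seen, was lower there, at 10.9 TPM with Amuc_0904 and 17.6 TPM with buffer (log2 fold change -0.64, limma adjusted p = 0.052). Around SERPINB1, SERPINB9 and SERPINB6 the 8 neighbours ran from -0.34 to -0.01, below SERPINB1 (0.11) and SERPINB6 (0.03) and on both sides of SERPINB9 (-0.21).

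The members fell into 2 ranges of base composition. The longest annotated transcripts of PI3, SLPI, SERPINA1, SERPINA3 and GZMB had a GC content of 52.2% to 54.0%, and those of the 4 clade B serpins 41.6% to 44.9%, around a median of 49.2% for the tested genes with a value. Slopes of log2 expression per 10 points of GC content were -0.042, 0.002 and -0.112 in the Amuc_0904 libraries, against 0.005, 0.093 and 0.054 in the buffer libraries, so genes rich in GC were on average lower with Amuc_0904. After removal of this trend the log2 fold changes were 2.11 for PI3, 1.36 for GZMB, 0.85 for SERPINA1, 1.03 for SERPINA3 and 0.29 for SLPI, each larger than before. They were 0.11 for SERPINB1, 0.02 for SERPINB6, 0.07 for SERPINB5 and -0.21 for SERPINB9.

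Profiles most like those of PI3 and GZMB were sought among 9857 tested genes with a symbol and a mean of at least 5 TPM, by Pearson correlation of log2(TPM + 1) over the 6 libraries. The libraries share the split between treatments, and the correlations are given as a description. For PI3 the closest were DNTTIP1, CSF2, ETS1, IL23A and ICAM1, with r between 0.989 and 0.993, and 159 genes had r above 0.9. CSF2, a cytokine gene, was at 33.2, 30.6 and 30.2 TPM with Amuc_0904, against 13.4, 12.7 and 16.4 TPM with buffer. For GZMB the closest were PFDN5, EEF1E1, PPP1R11, TMEM265 and RAB13, with r between 0.992 and 0.996, and 213 genes had r above 0.9. Their ratios of means ran from 1.09 for PPP1R11 to 2.19 for TMEM265, beside 2.69 for GZMB.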

How the data were processed

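The authors deposited 1 gene table in TPM, with RSEM as the quantification tool per the series' design text. Per the submitters' processing notes, HISAT2, StringTie and edgeR were among the tools, with no version stated. The same notes list the mouse build GRCm38.p6, but the table's identifiers are human Ensembl genes, so the annotation behind the values is uncertain. Values are rounded to 2 decimals, depth is unknown, and a listed 0 can be a failed estimate. Each column was matched to its library by the name in the labels.

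Genes reaching 1 TPM in 3 or more libraries were fitted on log2(TPM + 1) in R 4.3.3 by limma 3.58.1, whose moderated variances followed mean expression. The two-sided p-values were adjusted over all tested genes by the Benjamini-Hochberg method. Log2 fold changes are Amuc_0904 minus buffer. Ratios are of group mean TPM. The workflow was tested on simulated data. The members and gene lists were chosen with earlier results of these data known. Other list genes named were mainly those past the threshold and up to 3 with the highest mean. CTSC was named beyond this rule, and with it all 4 other tested granule genes are given. The other granzymes and the neighbours SDC4 and RNF31 were also named outside it. Transcript GC content (99.0% of tested genes), positions and overlaps are from GENCODE 29. The strand protocol is not given in the sources used here, so overlapping genes can share reads. Alternatives were a pseudocount of 0.1, no filter or one at 5 TPM, a block for replicate number, omission of each library, 3 other scalings, removal of the GC trend by loess (span 0.3), limma without the trend and an adjusted p of 0.01. Omission of both extreme libraries on principal component 1 (buffer replicate 2 and Amuc_0904 replicate 3) was added after the data were seen. 1 serpin among the genes tested is not reported here.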

Additional observations from a re-analysis of the deposited data

How the results depend on the processing

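PI3 and SERPINA1 stayed past the threshold under all 17 alternatives, GZMB under 13 of 17 and SERPINA3 under 6 of 16. The number of members past it and higher was 4, and between 2 and 3 with 1 library left out. It was 2 with no filter on low TPM, 2 at an adjusted p of 0.01 and 2 with both extreme libraries on principal component 1 omitted, an alternative chosen after seeing the data. No member passed and was lower under any alternative. SERPINB5 had a log2 fold change between -0.10 (without Amuc_0904 replicate 3) and 0.21 with 1 library left out and -0.16 without both end libraries, where SERPINB1 had -0.0049, and the cause was not tested beyond the smaller number of samples. The replicate numbers did not pair the samples (correlations of same-numbered deviations between -0.094 and 0.075, with Amuc_0904 replicate 2 alone closest to its own number). With the replicate block 27 genes were higher and 53 lower, and SERPINA3 and KLK6 lost their calls. Over all genes, 53 were higher and 144 lower. With 1 library left out there were 15 to 36 higher and 17 to 74 lower, and without both end libraries 8 and 5. With no filter, which tests many more genes at low TPM, there were 7 and 2, at an adjusted p of 0.01 there were 14 and 15, and without the mean-variance trend 22 and 22. The count of lower genes was 354 with a filter of 5 TPM, 42 after centring, 56 after quantile normalization, 92 without ribosomal protein and mitochondrial genes and 41 after GC removal. Depth is unknown and limits genes with few reads most, which depends on transcript length as well as TPM. Among the members SERPINA3 and SERPINB5 had the lowest TPM with buffer. PI3 and SLPI, at a few TPM with buffer, had the shortest transcripts (longest annotated 577 and 596 bases, against 2660 for SERPINA3 and 2783 for SERPINB5). Which member had the fewest reads is not known.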
